A study of Mus musculus with 6 samples.

Results

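Basophils and mast cells were followed in the livers of an orthotopic mouse model of colorectal cancer. A barcode was counted as one of these cells when it held at least 300 genes, under 25% mitochondrial UMIs, a UMI of at least 2 of the 5 genes Mcpt8, Cd200r3, Ms4a2, Fcer1a and Cpa3, and no UMI of Cd3e, Cd79a, Clec4f or Stab2. A UMI, or unique molecular identifier, is the tag that marks 1 captured transcript. The rule found 184 barcodes among the 66935 that passed the first 2 filters, of 71908 deposited. The cells were thus chosen by their own counts of the 5 markers and the 4 excluded genes, and their levels are described here with no test.

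Basophils and mast cells are rare granulocytes that carry the high-affinity receptor for IgE, of which Fcer1a and Ms4a2 encode subunits, and release histamine, lipid mediators, cytokines and chemokines when activated. Basophils mature in the bone marrow and circulate in blood, while mast cells mature in tissues under the growth factor receptor Kit and store proteases such as chymase and tryptase. In tumours of other organs both have been described as sources of type 2 cytokines and of chemokines that attract other leukocytes.

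Cells of the liver, immune and non-immune, were captured from 3 groups with 2 libraries each. The control group is given no model in the labels, the pre-metastatic and macro-metastatic groups come from the orthotopic colorectal cancer model, and the labels name CT26-GFP, colon carcinoma cells of the mouse marked with a green fluorescent protein, for all 6 libraries, control included. The sources used here do not give the strain, sex or age of the mice or the interval after implantation. Since no label states that the 2 libraries of a group are from different mice, the p-values capture the spread of these samples alone, and that spread may be technical.

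The 5 markers were rare in B cells and neutrophils. These classes hold no selected cell by definition, so the contrast follows in part from the rule and is no independent check of identity. In no library did more than 0.385% of B cells or neutrophils hold a UMI of any of the 5 markers. Median depths were 1401 to 2329 UMIs in B cells, 1083 to 2181 in neutrophils and 1889 to 3611.5 in the selected cells. The part of depth in the contrast was not tested. Mcpt8, a protease gene that marks mouse basophils, was detected in 6 of 9 and 15 of 29 selected barcodes of control 1 and 2, 61 of 64 and 10 of 19 of the pre-metastatic libraries, and 14 of 14 and 45 of 49 of the macro-metastatic ones. Its level was 325 and 402 CPM in control, 2418 and 390 CPM in pre-metastatic and 3994 and 2866 CPM in macro-metastatic libraries, where CPM are UMIs per 1000000 of the UMIs summed over the selected cells of a library, scaled by TMM factors. Pre-metastatic 1 and both macro-metastatic libraries were thus high for Mcpt8, while pre-metastatic 2 lay with the controls. Cpa3, a carboxypeptidase of mast cell granules that basophils also carry, had 9165 and 3190 CPM in control, 818 and 643 CPM in pre-metastatic and 854 and 657 CPM in macro-metastatic libraries. A few barcodes carried the control level: 2 held 154 of the 169 Cpa3 UMIs of control 1 and 3 held 162 of the 246 of control 2, and the rest of the cells were at 1271 and 1321 CPM before TMM scaling. Ms4a2 was at 1085 and 934 CPM in control, 977 and 1111 CPM in pre-metastatic and 485 and 562 CPM in macro-metastatic libraries. Fcer1a was at 922 and 376 CPM in control, 253 and 409 CPM in pre-metastatic and 346 and 318 CPM in macro-metastatic libraries, with 9 of the 17 UMIs of control 1 in one barcode.

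Genes outside the rule were checked as well. Cyp11a1, a steroid synthesis enzyme that mouse basophils carry and the rule did not use, was detected in 162 of the 184 barcodes. Its share in other cell classes is not given here, so the count alone does not establish identity. Mast cell proteases were found in control libraries only. Cma1, Mcpt4, Tpsb2, Tpsab1, Mrgprb1 and Mrgprb2 together had 169 UMIs in 1 barcode of control 1, 255, 8 and 3 UMIs in 3 barcodes of control 2, and 0 UMIs in the 4 other libraries. A basophil side was defined as the 179 barcodes with none of these genes and at least 1 UMI of Mcpt8, Prss34, Cd200r3, Cyp11a1 or Grm6; since Mcpt8 and Cd200r3 belong to the rule, it is no independent check of identity. It still holds barcodes with other profiles. One of control 1 had no mast cell protease but 13 UMIs of Kit, 95 of Cpa3, 56 of Gzmb and 0 of Hdc, and one of macro-metastatic 2 had 455 UMIs of Gzma, 54 of Prf1 and 0 of Hdc.

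Among the rule genes, the promoter of Ms4a2, which encodes the beta chain of the IgE receptor, held 3 matches to the core motif of GATA factors (AGATAA or TGATAA, either strand), the family to which the basophil and mast cell regulator Gata2 belongs. It is shown with the promoters of Il6 and Cxcl2, a cytokine and a chemokine gene that differed between the groups below and the only genes of those looked up that held the NF-kappaB motif GGGANTTTC (either strand). The 250 bases before the RefSeq start are printed 5′ to 3′ on the gene's strand (build GRCm38.p6), with matches in capitals, at chr19:11623720-11623969 (minus strand) for Ms4a2, chr5:30012864-30013113 (plus) for Il6 and chr5:90903649-90903898 (plus) for Cxcl2.
Ms4a2: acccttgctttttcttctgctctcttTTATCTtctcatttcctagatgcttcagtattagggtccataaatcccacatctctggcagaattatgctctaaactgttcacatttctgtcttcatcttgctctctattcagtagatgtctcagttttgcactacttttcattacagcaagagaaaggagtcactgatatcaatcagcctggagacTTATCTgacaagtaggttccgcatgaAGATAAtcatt
Il6: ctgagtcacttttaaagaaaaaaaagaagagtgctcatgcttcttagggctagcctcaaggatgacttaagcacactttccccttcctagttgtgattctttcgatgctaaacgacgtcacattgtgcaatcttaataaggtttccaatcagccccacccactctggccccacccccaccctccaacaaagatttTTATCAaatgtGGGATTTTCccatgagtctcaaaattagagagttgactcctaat
Cxcl2: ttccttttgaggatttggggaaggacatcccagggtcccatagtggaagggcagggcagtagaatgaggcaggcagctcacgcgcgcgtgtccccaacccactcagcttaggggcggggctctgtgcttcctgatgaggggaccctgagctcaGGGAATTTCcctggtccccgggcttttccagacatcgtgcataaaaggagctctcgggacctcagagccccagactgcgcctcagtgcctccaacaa
Of 20 genes looked up, 17 had a promoter in the table. Of all 32851 promoters of 300 bases (250 before a start and 50 from it), 18.6% held a GATA match and 1.11% the NF-kappaB motif. In the genes looked up, GATA matches occurred in 4 of the 5 rule genes (not in Mcpt8) and in 9 genes in all, and the NF-kappaB motif in 2. A match describes these letters and is not a measured binding site.

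The excluded genes removed more barcodes than they left, and not evenly over the groups. Of 480 barcodes with at least 2 markers, 296 held an excluded gene, 36 and 22 barcodes of the controls, 66 and 57 of the pre-metastatic and 41 and 74 of the macro-metastatic libraries. Stab2, a scavenger receptor of liver sinusoidal endothelium, was present in 73.3% and 41.2% of the barcodes with at least 2 markers in control, 45.4% and 71.1% in pre-metastatic, but 14.5% and 15.4% in macro-metastatic libraries. Over all kept barcodes of the same libraries its shares were 46.2% and 57.1%, 30.9% and 49.3%, and 41.8% and 43.6%. The Stab2-positive barcodes with at least 2 markers were deep, with median UMIs of 7856 and 4832 in control against 1889 and 2205 in the selected cells. They carried the sinusoidal gene Clec4g in 32 of 33 and 20 of 21 barcodes of control, against 3 of 8 and 6 of 19 in the macro-metastatic libraries.

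Cd3e, a chain of the T cell receptor complex, showed the opposite distribution. It was present in 6.67% and 5.88% of these barcodes in control and 6.15% and 10.5% in pre-metastatic livers. In the macro-metastatic libraries the shares were 52.7% and 37.4%, whereas B cells held it in at most 3.14% and neutrophils in at most 4.13% of barcodes of any library. Of the barcodes that Cd3e alone left out, 17 in macro-metastatic 1 and 35 in macro-metastatic 2, the first held 81 and the second 138 UMIs of Cd3e. Other T cell genes were nearly missing from them: Cd3d was found in 0 of 17 and 2 of 35, Cd3g in 0 and 1, and Trac in 0 and 2. In control only 2 and 1 barcodes, and in pre-metastatic libraries 2 and 3, were left out by Cd3e alone.

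**Figure D1:**
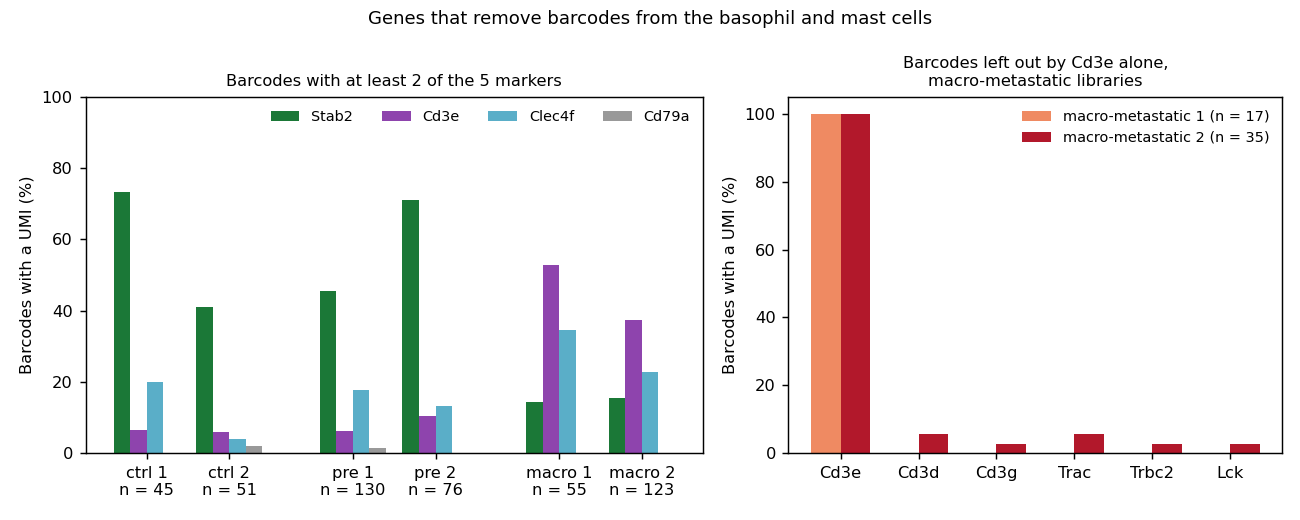
Left, percent of barcodes with at least 2 markers that held a UMI of each excluded gene, by library (n under each). Right, percent with a UMI of 6 T cell genes among barcodes that Cd3e alone left out of the 2 macro-metastatic libraries; Cd3e is at 100% by definition and the 5 other genes are at or near 0.

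Numbers of basophils and mast cells did not pass the test between any groups. The 2 controls held 9 and 29 cells, the pre-metastatic livers 64 and 19 and the macro-metastatic livers 14 and 49. As shares of the barcodes kept these were 0.0948% (Wilson 95% interval 0.0499 to 0.180) and 0.280% (0.195 to 0.401), 0.620% (0.486 to 0.791) and 0.178% (0.114 to 0.279), and 0.116% (0.0692 to 0.195) and 0.349% (0.264 to 0.461); the intervals cover counting error only. The means were 0.187% ± 0.131, 0.399% ± 0.312 and 0.232% ± 0.164 (SD, n = 2 each). The 2 libraries of each group differed several-fold, and the 3 groups overlapped. On the log2 scale the difference was 1.08 (SE 0.94, adjusted p = 0.585) for pre-metastatic minus control, 0.31 (SE 0.93, adjusted p = 0.750) for macro-metastatic minus control and -0.77 (SE 0.92, adjusted p = 0.516) for macro-metastatic minus pre-metastatic, with edgeR's quasi-likelihood test over 16 cell classes. In the same tests 12.5%, 43.8% and 0.0% of the classes were called (5, 8 and 4 at an unadjusted p under 0.05, and 5, 7 and 1 by DESeq2). The exact permutation test of 2 against 2 cannot go below p = 0.3333. The sign depended on single libraries: without pre-metastatic 1 the first difference was -0.07 and the third 0.38, and without control 1 or macro-metastatic 2 the second was -0.26 or -0.69.

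Other choices of cells gave other shares. With Cd3e not used, the controls had shares of 0.116% and 0.289%, the pre-metastatic libraries of 0.639% and 0.207% and the macro-metastatic ones of 0.257% and 0.598%. With none of the 4 genes used to exclude, they were 0.474% and 0.492%, 1.26% and 0.714%, and 0.457% and 0.875%. Thinned to 1000 UMIs per barcode they were 0.163% and 0.244%, 0.648% and 0.193%, and 0.190% and 0.436%, with 913, 962, 1066, 1318, 974 and 1447 shallower barcodes left out of the libraries from control 1 to macro-metastatic 2. Pre-metastatic 1 had the highest share under each of these choices. Just outside the rule, 6, 6, 24, 8, 21 and 19 barcodes held exactly 1 marker (control 1 and 2, pre-metastatic 1 and 2, macro-metastatic 1 and 2), and 2, 4, 6, 3, 2 and 8 just inside held exactly 2.

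**Figure D2:**
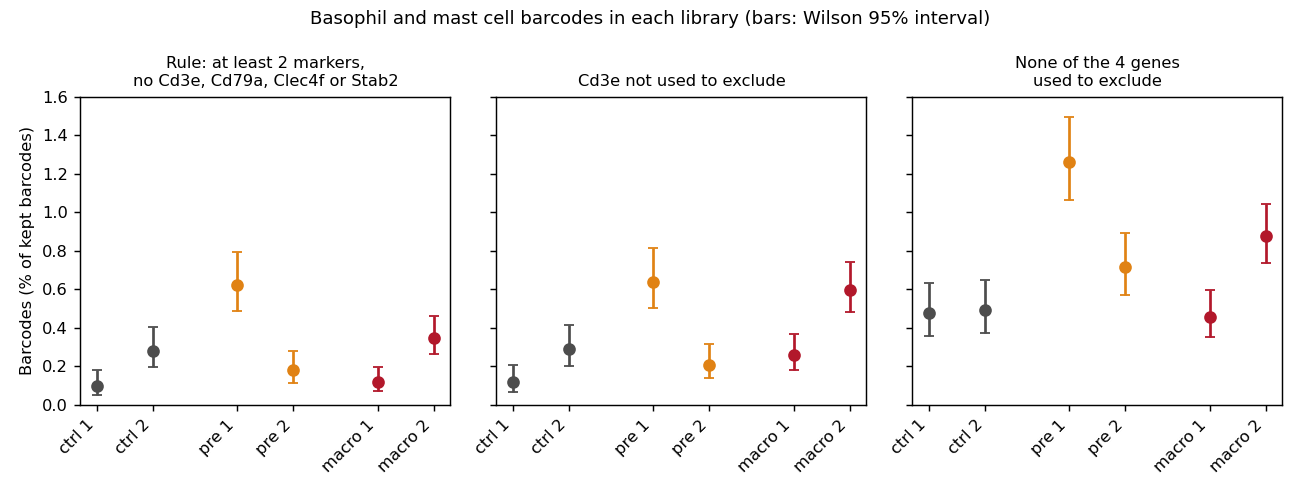
Percent of kept barcodes counted as basophils and mast cells in each library (points, with Wilson 95% intervals as bars), under the rule, with Cd3e not used and with none of the 4 genes used to exclude. In each panel the 2 libraries of at least one group differ by more than their intervals, and pre-metastatic 1 is highest.

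The libraries held 41914149 to 90819751 UMIs in all, but the summed transcripts of basophils and mast cells rest on few cells. The selected cells of a library held 17180 and 74116 UMIs in control. Pre-metastatic cells held 180955 and 49198 UMIs, and macro-metastatic cells 48199 and 161825. Accordingly 1 UMI was worth 58.2 CPM in control 1 and 5.53 CPM in pre-metastatic 1. Of the 184 barcodes, 25 held at least 3 markers of another class (10 neutrophil, 4 NK cell, 3 dendritic cell, 3 endothelial, 2 monocyte, 2 progenitor and 1 T cell), 0 and 1 from the controls, 9 and 3 from pre-metastatic and 4 and 8 from macro-metastatic libraries. No doublet caller was run. Pairs of libraries shared 126 to 222 barcode sequences.

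In the pre-metastatic livers few genes of the selected cells differed from control. Of 1291 genes tested, 0.542% were called (0.0775% higher, 0.465% lower), which were Acod1 on the higher side and Mcpt4, Cma1, Tpsb2, Scin, Ccl2 and Rsad2 on the lower. Mcpt4, Cma1 and Tpsb2, the mast cell proteases, had 85 and 78, 44 and 116, and 24 and 66 UMIs in control 1 and 2 and none elsewhere, all from 1 to 3 barcodes per library. Against the floor of 3 counts over the group, their summed level was at least 137-fold, 134-fold and 75.6-fold lower in pre-metastatic libraries. In macro-metastatic libraries it was at least 125-fold, 123-fold and 69.0-fold lower. These bounds count UMIs and not cells, so they do not bound the share of cells with these proteases. Kit, the mast cell growth factor receptor, was at 813 and 402 CPM in control, 73.9 and 136 CPM in pre-metastatic and 0 and 13.5 CPM in macro-metastatic libraries, a fall of 5.56 between control and macro-metastatic (SE 0.79, adjusted p = 0.00117). The 3 proteases move with the 2 barcodes rich in them, and those barcodes held 2 of the 15 Kit UMIs of control 1 and 3 of the 31 of control 2. The other 13 of control 1 were in one barcode with no mast cell protease, and 15 of control 2 were in the barcode with 8 protease UMIs. With the basophil side alone, 0 of 1192 genes were called between pre-metastatic and control by edgeR (61 at an unadjusted p under 0.05). Scin, an actin-severing protein, came from 1 and 3 control barcodes, and Rsad2 from 2 barcodes of control 2 with 41 UMIs. Without control 2 the Rsad2 difference of -5.21 turned to 2.86. Acod1, Scin, Ccl2 and Rsad2 lost the call without at least one library, and the 3 mast cell proteases kept it. With none of the 4 genes used to exclude, Cma1 and Tpsb2 lost it (adjusted p = 0.439 for each, edgeR), and Mcpt4 lost it by DESeq2.

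Acod1, which encodes the enzyme that makes itaconate in activated myeloid cells, rose from control to pre-metastatic and again to macro-metastatic livers. It was at 325 and 298 CPM in control, 1805 and 1266 CPM in pre-metastatic and 8980 and 5813 CPM in macro-metastatic libraries, with no overlap between groups. The log2 difference was 2.33 (SE 0.42, adjusted p = 0.0161) for pre-metastatic minus control and 2.25 (SE 0.36, adjusted p = 0.00362) for macro-metastatic minus pre-metastatic. It was found in 4 of 9 and 6 of 29 control barcodes and in 13 of 14 and 45 of 49 macro-metastatic ones. Without control 1 or control 2 the first difference was 2.45 or 2.34, with adjusted p = 0.162 or 0.581, and on the basophil side alone its adjusted p was 0.061. Neutrophils of the same libraries had mean levels of 982, 2613 and 4932 CPM of Acod1 in the 3 groups, and B cells 0.482, 15.2 and 74.0 CPM. Without the barcodes that carry 3 or more markers of another class, the difference between pre-metastatic and control was 2.77 (adjusted p = 0.000177, edgeR).

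Between macro-metastatic and control livers several genes of secreted products rose. Of the 1291 genes 11.0% were called, 8.44% higher and 2.56% lower, and the median log2 difference over all was 0.03. Of 9 tested cytokines and growth factors 4 rose and 0 fell, with a median of 2.13. Among 6 tested genes of histamine and lipid mediators 3 rose, and among 7 chemokines 3 rose and 1 fell. Basophil genes outside the rule gave 7 higher and 0 lower of 17. Hdc, Alox5ap, Ccl3 and Ccl4 among them are also counted in the lists above. Both comparisons with control share the control libraries.

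Histamine synthesis was the first of these. Hdc, the enzyme that makes histamine, was at 3308 and 3475 CPM in control, 5606 and 3936 CPM in pre-metastatic and 12305 and 10013 CPM in macro-metastatic libraries. The macro-metastatic libraries stood above all others, by 1.71 against control on the log2 scale (SE 0.30, adjusted p = 0.00363). Without control 1 or control 2 the difference was 1.75 or 1.84 with adjusted p = 0.0535 or 0.0907. Ptgs2, the inducible prostaglandin synthase, rose by 1.74 (SE 0.32, adjusted p = 0.00428), from 1735 and 2593 CPM in control and 3062 and 3429 CPM in pre-metastatic to 7618 and 7148 CPM (0.0677 without control 1 and 0.0734 without control 2). Alox5ap, which presents arachidonate to 5-lipoxygenase, rose by 1.40 (SE 0.42, adjusted p = 0.0477), and on the basophil side alone its adjusted p was 0.0734; without control 1, control 2 or macro-metastatic 1 it was 0.165, 0.243 or 0.120. Alox5, the lipoxygenase itself, did not pass the test, with a log2 difference of -0.06 (SE 0.45), nor did Slc18a2, which loads histamine into granules, with -1.25 (SE 0.42, adjusted p = 0.0727).

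Type 2 and inflammatory cytokines followed. Il13 was at 54.2 and 104 CPM in control, 84.5 and 117 CPM in pre-metastatic and 554 and 806 CPM in macro-metastatic libraries, a rise of 2.91 against control (SE 0.52, adjusted p = 0.00363; 0.117 without control 2). It was seen in 3 of 14 and 24 of 49 macro-metastatic barcodes. Il6, whose promoter is printed above, was at 2224 and 2399 CPM in control, 5426 and 2942 CPM in pre-metastatic and 9096 and 8177 CPM in macro-metastatic libraries, a rise of 1.90 (SE 0.35, adjusted p = 0.00428; 0.0577 without control 1 and 0.116 without control 2). Neutrophils had a mean of 61.9 CPM and B cells of 10.7 CPM of Il6 in the macro-metastatic libraries. Il4, the other main type 2 cytokine, had 759 and 220 CPM in control against 2655 and 1030 CPM in macro-metastatic libraries, and its difference of 2.13 did not pass the test (SE 0.79, adjusted p = 0.111). Csf2, or GM-CSF, had 0 UMIs in both controls and 18 and 43 in the macro-metastatic libraries, from 4 and 5 barcodes, which made it at least 8.84-fold higher (adjusted p = 0.00908; 0.177 without control 2).

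Other cytokines showed no called change. Csf1, a macrophage growth factor, was at 4013 and 5160 CPM in control and 4686 and 5684 CPM in macro-metastatic libraries, a difference of 0.17 (SE 0.30, adjusted p = 0.771). Osm gave -0.14 (SE 0.40, adjusted p = 0.851) and Hgf 0.27 (SE 0.48, adjusted p = 0.767). Tnf lay at the threshold with 2.30 (SE 0.70, adjusted p = 0.0502), and pre-metastatic 1 was already at 1050 CPM against 234 CPM in pre-metastatic 2.

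**Figure D3:**
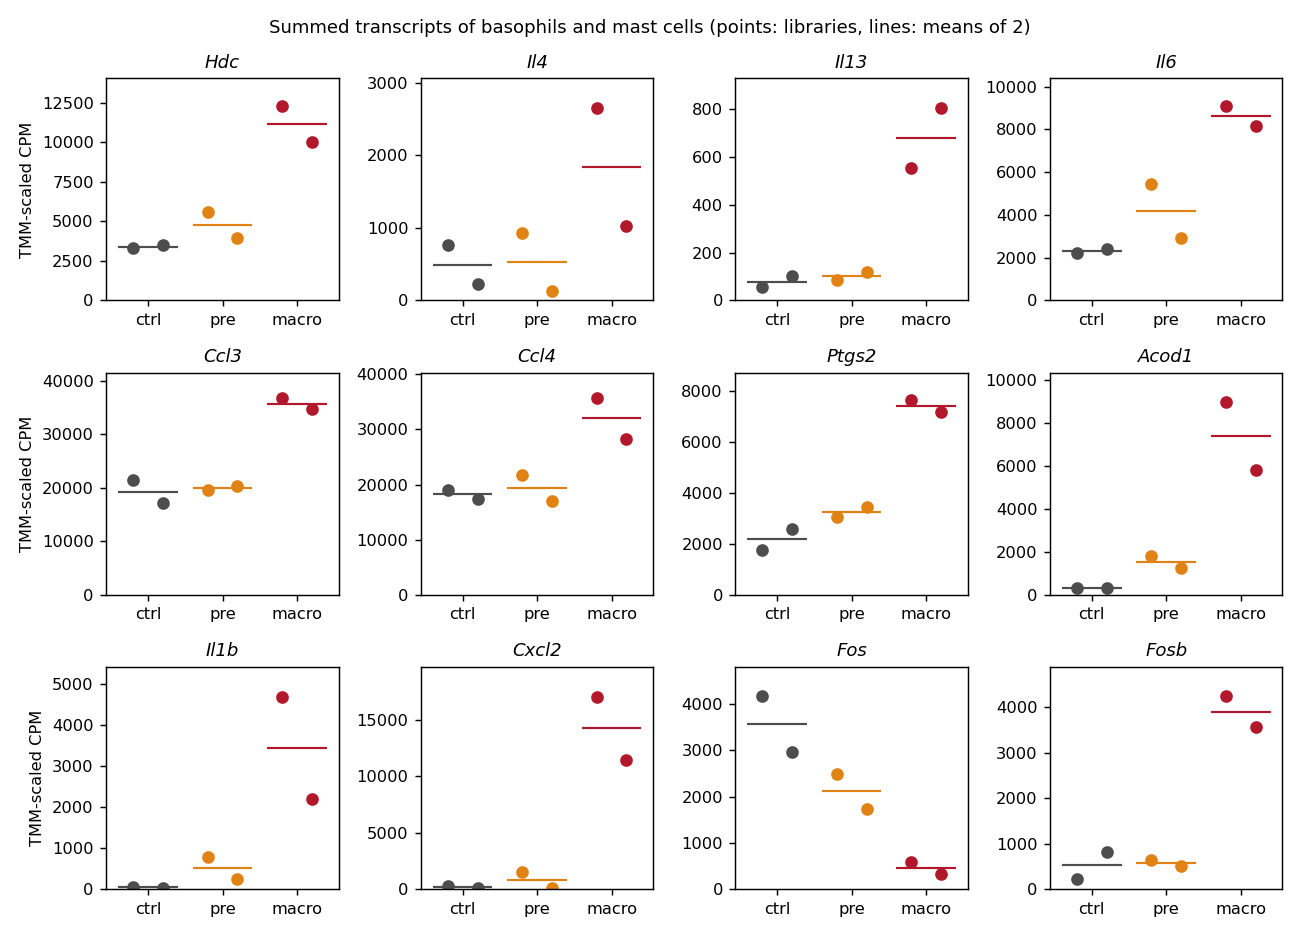
Level of 12 genes in the summed selected cells, in TMM-scaled CPM from 0 (points are libraries, lines group means of 2). Hdc, Il13, Il6, Ptgs2, Acod1, Il1b, Cxcl2 and Fosb are highest and Fos is lowest in both macro-metastatic libraries, while the 2 macro-metastatic Il4 values, 2655 and 1030 CPM, lie far apart.

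The chemokines Ccl3 and Ccl4, which attract monocytes and lymphocytes, rose by a smaller factor. Ccl3 was at 21368 and 17128 CPM in control, 19609 and 20262 CPM in pre-metastatic and 36730 and 34668 CPM in macro-metastatic libraries, a rise of 0.89 (SE 0.23, adjusted p = 0.0245). Ccl4 rose by 0.81 (SE 0.24, adjusted p = 0.0440). Both calls were lost without either control or either macro-metastatic library (adjusted p = 0.0535 to 0.215) and on the basophil side alone (0.0634 for Ccl3 and 0.124 for Ccl4), with the direction kept. Ccl6 and Ccl9 did not pass, with 0.61 (SE 0.31) and 0.57 (SE 0.33). The 1 chemokine that fell, Ccl2, had 4 and 27 UMIs in control from 1 and 2 barcodes.

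Cxcl2 and Il1b rose from a few UMIs in control. Cxcl2, a neutrophil attractant, was at 217 and 38.9 CPM in control, 1510 and 77.9 CPM in pre-metastatic and 17060 and 11423 CPM in macro-metastatic libraries, a rise of 7.41 (SE 1.05, adjusted p = 0.00117; 0.116 without control 2). It was found in 1 and 2 control barcodes and in 13 of 14 and 45 of 49 macro-metastatic ones. Il1b had 3 UMIs in control and 528 in macro-metastatic libraries, a ratio of 76.5 (counting interval 26.0 to 372, adjusted p = 0.000362; 0.0734 without control 2). Neutrophils of the macro-metastatic libraries had 14547 CPM of Cxcl2 and 7298 CPM of Il1b and were 3632 and 3770 barcodes there against 121 and 238 in control. In B cells the means in control and macro-metastatic libraries were 11.2 and 563 CPM of Cxcl2 and 11.2 and 228 CPM of Il1b.

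Neutrophil transcripts moved with the same groups. The summed level of 14 neutrophil genes in the selected cells was 291 and 337 CPM in control, 591 and 427 CPM in pre-metastatic and 5623 and 1174 CPM in macro-metastatic libraries, with 13, 10, 6, 11, 1 and 1 of the 14 genes at 0. S100a9 alone was at 0 in both controls and at 2563 and 522 CPM in the macro-metastatic libraries, against 336 CPM in B cells and 25997 CPM in neutrophils of the same livers. The part of neutrophil transcripts in the rises above was not tested. With the 25 barcodes carrying markers of another class left out, Cxcl2 and Il1b kept their calls in both comparisons with macro-metastatic libraries. S100a9 also kept both (edgeR adjusted p = 0.000657 against control and 0.00180 against pre-metastatic), and S100a8 kept its call against control (0.0233). Leaving these barcodes out thus did not remove neutrophil transcripts, and their part in the rises of Cxcl2 and Il1b cannot be read from it. Between macro-metastatic and pre-metastatic libraries, Ccl3 (0.47, adjusted p = 0.191), Ptgs2 (0.89, 0.0668) and S100a8 (2.24, 0.178) lost theirs. So did Bcl2l11, Bhlhe40, Fam117a and Sumo2 (adjusted p = 0.0792 to 0.175, edgeR). Hdc, Il13, Il6, Ccl3 and Ptgs2 had lower means in neutrophils than in the selected cells of the macro-metastatic libraries, at 3383, 2.66, 61.9, 1307 and 421 CPM.

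**Figure D4:**
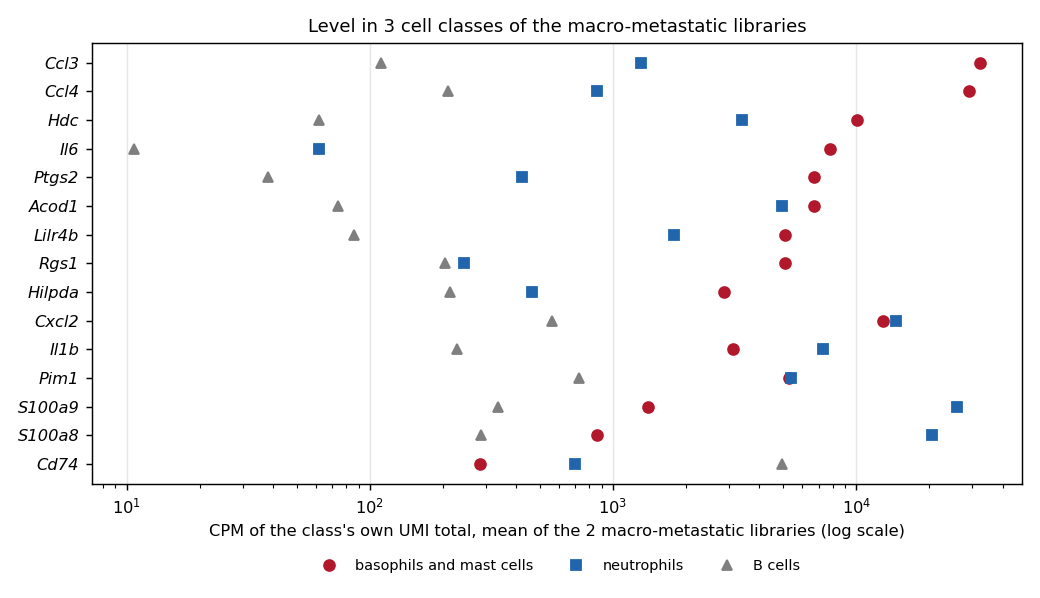
Mean level of 15 genes in the 2 macro-metastatic libraries (log axis, CPM of each class's own UMI total) for basophils and mast cells, neutrophils and B cells. Ccl3, Ccl4, Hdc, Il6, Ptgs2 and Rgs1 are highest in basophils and mast cells, Il1b, S100a9 and S100a8 in neutrophils, and Cd74 in B cells.

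Receptor lists differed in their share of calls between macro-metastatic and control libraries. Called were 1 of 7 cytokine receptors, 3 of 14 chemoattractant receptors and adhesion genes and 2 of 5 inhibitory and activating receptors. Over all genes 11.0% were called. None of 9 tested genes of IgE receptor signalling was called between macro-metastatic and control libraries (edgeR; 0 at an unadjusted p under 0.05, 0 by DESeq2), with a median of -0.39. Fcer1g, the shared signalling chain, gave 0.78 (SE 0.42) and Lyn, the kinase that starts the cascade, 0.51 (SE 0.51). Il1rl1, the receptor for IL-33, was at 1356 and 545 CPM in control and 208 and 196 CPM in macro-metastatic libraries, a fall of 2.10 (SE 0.53, adjusted p = 0.0247). Mast cells also carry Il1rl1, and on the basophil side alone the fall of 1.55 did not pass (adjusted p = 0.083); with none of the 4 genes used to exclude, the difference was 0.65. Without control 1 the difference was -1.36. The gene lost its call without either control or either macro-metastatic library (adjusted p = 0.0535 to 0.196). Lilr4b, a leukocyte immunoglobulin-like receptor, rose by 1.52 (SE 0.32, adjusted p = 0.00908; 0.0738 without control 1 and 0.142 without control 2), from 2007 and 1932 CPM to 5564 and 5684 CPM. C5ar1, the C5a receptor, rose by 2.06 (SE 0.53, adjusted p = 0.0250) and Itgam by 2.33 (SE 0.65, adjusted p = 0.0359), and both lost the call without control 1, control 2 or macro-metastatic 1. Neutrophils held more of both, at 1661 and 633 CPM.

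Of 11 tested granulocyte transcription factors 1 rose and 1 fell between control and macro-metastatic libraries, where 11.0% of all genes were called. Cebpa was at 0 and 51.9 CPM in control and 346 and 556 CPM in macro-metastatic libraries, a rise of 3.48 (SE 0.65, adjusted p = 0.00428; without control 2 it was 8.41 with 0.0923, and 0.168 was the adjusted p without macro-metastatic 2). Id2 fell by 2.67 (SE 0.75, adjusted p = 0.0368; the difference was -1.22 with 0.398 without control 1 and -3.49 with 0.0807 without control 2). Gata2, which basophils need, was at 1302 and 1348 CPM in control, 1103 and 1286 CPM in pre-metastatic and 1339 and 793 CPM in macro-metastatic libraries and did not pass (-0.35, SE 0.40, adjusted p = 0.639).

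Immediate-early genes split in direction, with 3 of 18 higher and 7 lower in macro-metastatic than in control libraries. Over all genes 8.44% were higher and 2.56% lower. Fos fell from 4176 and 2956 CPM in control through 2491 and 1734 CPM in pre-metastatic to 577 and 325 CPM (log2 difference -3.03, SE 0.43, adjusted p = 0.00117). Fosb, its close relative, rose from 217 and 817 CPM to 4248 and 3570 CPM (2.72, SE 0.47, adjusted p = 0.00355). Junb, Jun, Egr1, Ier2, Zfp36 and Hsph1 were the others that fell, by 1.12 (Egr1) to 2.10 (Junb), and Egr3 and Ier3 rose by 1.97 and 2.00. Mean Fos levels in control and macro-metastatic libraries were 3273 and 397 CPM in neutrophils and 878 and 267 CPM in B cells. Txnip, a gene held down by low glucose, fell by 3.03 (SE 0.56, adjusted p = 0.00428). Fos, Fosb and Txnip kept their calls when any library was left out, and the rise of Fosb was 4.25 without control 2.

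Of 12 tested glycolytic and hypoxia genes 5 rose and 0 fell against control, with 8.44% higher and 2.56% lower over all genes. Hilpda, which hypoxia induces and which coats lipid droplets, was at 0 and 156 CPM in control, 454 and 58.4 CPM in pre-metastatic and 2724 and 3577 CPM in macro-metastatic libraries (4.77, SE 0.78, adjusted p = 0.00285; 0.0807 without control 2). Gapdh rose by 4.03 (SE 0.63, adjusted p = 0.00232) and Ldha by 2.33 (SE 0.56, adjusted p = 0.0191), while Pkm, with 0 UMIs in control and 13 and 45 in macro-metastatic libraries, was at least 8.40-fold higher (adjusted p = 0.00365). Gapdh in B cells went from 109 to 484 CPM and in neutrophils from 85.9 to 1194 CPM over the same groups. Pim1, a kinase that promotes survival under cytokines, rose by 1.79 (SE 0.35, adjusted p = 0.00729), and its neutrophil means were 2139 and 5369 CPM in these groups. Without control 2 Hilpda, Gapdh, Ldha, Pkm and Pim1 kept their direction and lost the call (adjusted p = 0.0734 to 0.215). Hilpda and Gapdh, at 0 in control 1, then had fitted differences of 11.1 and 8.56, which are no bound, and Ldha and Pim1 also lost it without control 1 (0.0609 and 0.0812).

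Several differences rested on single cells or a few UMIs. Prss34, a basophil protease, was found in 3 barcodes of pre-metastatic 1 and 1 barcode of each macro-metastatic library, with 25, 29 and 169 UMIs. Its summed UMIs were at least 28.7-fold higher in macro-metastatic than in control libraries (edgeR adjusted p = 0.00285), with 75.8% of all Prss34 UMIs in one barcode. That bound counts UMIs and not cells, so it does not bound the share of cells that carry Prss34. Gzmc had 83.4% of its UMIs in one barcode of macro-metastatic 2 that held 5 NK cell markers and 18210 UMIs, and 7 NK cell genes summed to 0 CPM in macro-metastatic 1 and 3269 CPM in macro-metastatic 2. Srxn1, an antioxidant enzyme, had 1 UMI in control against 10 and 64, a ratio of 32.2 (counting interval 5.60 to 1287, adjusted p = 0.0110), with fitted differences of 8.16 without control 1 and 2.75 without control 2 (0.221) against 4.83 with both. Havcr2, or TIM-3, and Gimap5 had 0 UMIs in control and were at least 7.39-fold and 5.65-fold higher. Clec4e rose by 4.81 (SE 0.89, adjusted p = 0.00428; 8.80 with 0.159 without control 2), a gene that neutrophils held at 2217 CPM. Scin, Cd34, Angpt1 and Itga4 fell. Without macro-metastatic 2, which leaves Kit, Scin and Itga4 at 0 in that group, the fitted differences of these 3 went from -5.56, -5.11 and -3.90 to -8.35, -8.42 and -7.89, and that of Angpt1 from -4.85 to -3.02 (adjusted p = 0.367). Cd34 and Angpt1 had UMIs in 2 barcodes of control 1 each, and with none of the 4 genes used to exclude their log2 differences were 0.11 and 0.41.

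Calls were often lost when a control library was left out. Of 46 genes named for this comparison, 37 of the 44 that could be refitted lost the call without control 2, 22 of 46 without control 1, 7 without macro-metastatic 1, 11 of 45 without macro-metastatic 2, 1 without pre-metastatic 1 and 0 without pre-metastatic 2, with no change of direction. Of the 37 lost without control 2, which supplied 29 of the 38 control cells, 27 had a fold as large or larger than with all libraries and 10 a smaller one. For Il6, Ptgs2 and Il13 the fold was 2.05, 2.18 and 3.74 against 1.90, 1.74 and 2.91. Without control 2, control 1 alone stood for control, and Hilpda, Gapdh and Cebpa were at 0 there. Their fitted folds of 11.1, 8.56 and 8.41, against 4.77, 4.03 and 3.48 with all libraries, are no bound. The count of folds as large therefore does not show that the differences held. Mcpt4, Cma1, Tpsb2, Kit, Txnip, Fos and Fosb kept the call whichever library was left out. With none of the 4 genes used to exclude, Mcpt4, Cma1 and Tpsb2 lost it (adjusted p = 0.334, 0.427 and 0.318, edgeR). Kit, Txnip, Fos and Fosb kept it there too. On the basophil side alone 131 of the 142 called genes were tested and 108 were called again.

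Macro-metastatic livers also differed from pre-metastatic ones. Between macro-metastatic and pre-metastatic libraries 7.05% of genes were called, 6.51% higher and 0.542% lower. Il13 rose by 2.86 (SE 0.44, adjusted p = 0.00358), Cxcl2 by 4.05 (SE 0.77, adjusted p = 0.00668), Il1b by 2.63 (SE 0.52, adjusted p = 0.00743), Hdc by 1.22 (SE 0.29, adjusted p = 0.0233) and Ccl3 by 0.84 (SE 0.22, adjusted p = 0.0347), whereas the Il6 difference of 1.04 did not pass (adjusted p = 0.0732). Cd52, a small surface glycoprotein of leukocytes, was at 100 and 19.5 CPM in pre-metastatic and 762 and 1240 CPM in macro-metastatic libraries (3.74, SE 0.55, adjusted p = 0.00254), with 108 and 194 CPM in control. Slco2b1, an organic anion carrier, went from 10.6 and 19.5 CPM to 323 and 677 CPM (5.25, SE 0.89, adjusted p = 0.00478; 0.122 without macro-metastatic 2). Rsad2, an interferon-stimulated gene, rose by 5.01 (adjusted p = 0.00836; 0.0975 without pre-metastatic 1), and Sgms2, Ntng2 and Tent5c by 4.83, 4.36 and 3.52. Without pre-metastatic 1 the rises of Cxcl2, Cd52, Ntng2 and Hilpda were 7.55, 5.66, 7.23 and 5.79, larger than with it, and that of Sgms2 was 2.96 (0.0964) against 7.89 without pre-metastatic 2. The 7 genes that fell were Txnip, Fos, Zfp36l2, Fam117a, Junb, Sumo2 and Hipk1, by 1.63 (Hipk1) to 2.31 (Txnip). Fam117a lost its call without any one of the 6 libraries (adjusted p = 0.0596 to 0.466), Hipk1 without any but control 1 (0.0598 to 0.247), and Sumo2 without control 2, either macro-metastatic library or pre-metastatic 2 (0.0521 to 0.188). Of 37 named genes, 14 kept the call whichever library was left out, among them Il13, Il1b, Cxcl2, Cd52, Hilpda, Fos and Fosb, and the call of Hdc was lost without control 1, control 2 or macro-metastatic 1 (adjusted p = 0.0525 to 0.114) and that of Ccl3 also without macro-metastatic 2 (0.0776 to 0.174).

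Differences between groups were set against those of other cells of the same livers by the interaction of cell class and group. Relative to B cells, 0.571%, 5.06% and 1.22% of 1226 genes were called between pre-metastatic and control, macro-metastatic and control, and macro-metastatic and pre-metastatic libraries. For macro-metastatic minus control 1.96% were higher and 3.1% lower in basophils and mast cells. Relative to neutrophils, 0.0789%, 5.21% and 3.95% of 1267 genes were called, and for macro-metastatic minus control 4.1% were higher and 1.1% lower. Of the 142 genes called between macro-metastatic and control libraries, 36 of 121 compared with B cells and 34 of 131 compared with neutrophils were also called there. Rgs1, a regulator of chemokine receptor signalling named here after its values were seen, rose by 1.77 more than in B cells (adjusted p = 0.00839), from 1356 and 908 CPM to 6279 and 4993 CPM. Hilpda rose by 2.56 more than in B cells (adjusted p = 0.0329). The change of Ptgs2 was 4.56 above that in neutrophils (edgeR interaction, adjusted p = 5.17e-06). Neutrophil means of Ptgs2 fell from 2825 CPM in control to 421 CPM in macro-metastatic libraries, so part of the 4.56 is that fall. Acod1 rose by 2.34 more than in neutrophils (edgeR interaction, adjusted p = 0.00697). Hdc, Ccl3, Ccl4 and Ptgs2 had negative differences relative to B cells, whose own levels were near 0 in control (2.71, 14.1, 19.4 and 0.482 CPM) and 61.8, 111, 210 and 38.1 CPM in macro-metastatic libraries.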

How the data were processed

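Single-cell suspensions of mouse liver (collagenase II digestion, a sieve, red cell lysis and dead-cell removal, per the labels' protocols) gave 6 BD Rhapsody libraries. The authors deposited UMI counts per gene and barcode as raw, unnormalized counts of 31253 features. CASAVA 1.8, UMI-tools and build mm10 are named in the submitters' processing notes; no aligner or annotation is named (not given in the sources used here). Every deposited barcode held at least 500 UMIs. Kept barcodes had at least 300 genes and under 25% mitochondrial UMIs.

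For each library the counts of the selected cells were added up, and the sums were tested with edgeR 4.0.16 (R 4.3.3; filterByExpr, TMM, quasi-likelihood test over the 6 libraries, 3 residual degrees of freedom, Benjamini-Hochberg over all genes tested, calls at adjusted p under 0.05). B cells, neutrophils and the other classes were barcodes with at least 3 of 6 markers and more than of any other class. Together with basophils and mast cells, which the rule defined, 16 classes entered the test of numbers, with kept barcodes as library size. Changes relative to B cells or neutrophils were class-by-group interactions with library as a block. DESeq2 1.42.0 and limma 3.58.1 were alternatives. Levels are CPM scaled by TMM factors for the selected cells. A floor of 3 counts over a group was used for genes at 0. The floor treats UMIs as independent, so its bounds do not hold for cells where a few barcodes carry the gene. The fits were tested on simulated data: for macro-metastatic minus control, 7.19%, 78.8% and 97.2% of genes set to differ by 1, 2 and 3 on the log2 scale were called (1222, 1234 and 1250 genes tested). Of the calls, 7.69%, 2.08% and 3.83% were genes not set to differ. The simulation gave every gene the same dispersion of 0.05 and held no single barcodes rich in a gene. Its shares may therefore not hold for the real sums.

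Named genes were, per comparison, up to 10 rising and 10 falling by fold change among called genes with mean log2 CPM of at least 5, libraries that did not overlap and a level of at least 10% of the highest other class, plus up to 4 per gene list by smallest p. The cells, lists and tests were chosen with earlier results of these data known. Excluding without Cd3e, and gene tests without the 4 excluded genes, were added after seeing the data. No doublet caller was run.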

Additional observations from a re-analysis of the deposited data

Results flagged for a closer look

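For the genes here, the change in basophils and mast cells differed from the change in B cells of the same libraries by the interaction of cell class and group (edgeR, adjusted p under 0.05). For macro-metastatic minus control, the difference on the log2 scale was positive for Pkm (8.56), Gimap5 (10.04), Cd74 (9.52) and Hilpda (2.56). Pkm, Gimap5 and Cd74 had 0 UMIs in the control cells, so these fitted values depend on the prior count and are no bound. Negative values were found for Hdc (-2.84), Ptgs2 (-4.24), Alox5ap (-2.29), Ccl3 (-2.09), Ccl4 (-2.72), Ifitm1 (-3.3) and Lilr4b (-2.73), genes that rose in the selected cells and rose by a larger factor from levels near 0 in B cells.

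Genes that fell in the selected cells had negative values too, namely Fos (-1.42), Junb (-1.8), Zfp36 (-1.67), Id2 (-3.27), Itga4 (-3.8) and Ccl2 (-7.26). Junb gave -1.75 between macro-metastatic and pre-metastatic libraries, and Rsad2 gave -6.64 between pre-metastatic and control libraries, with its 41 control UMIs in 2 barcodes.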

How the results depend on the processing

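Numbers never passed the test under any alternative, and their sign did not hold: leaving out 1 library gave -0.0734 to 2.06 for pre-metastatic minus control, -0.689 to 1.29 (-0.261 without control 1) for macro-metastatic minus control and -1.77 to 0.385 for macro-metastatic minus pre-metastatic. For macro-metastatic minus control the sign also turned with Ptprc-positive barcodes as the total (-0.228) and under 10% mitochondrial UMIs (-0.0348), and for macro-metastatic minus pre-metastatic with Cd3e not used (0.0187). Called genes between pre-metastatic and control numbered 7 and ranged from 3 to 37 with 1 library left out; they were 17 with no filter on low counts, 14 without barcodes carrying markers of other classes, 0 on the basophil side and 0 with no gene excluded (5786 tested, 248 at an unadjusted p under 0.05, edgeR). Between macro-metastatic and control, 142 became 8 (without control 2) to 250 (without pre-metastatic 2), 68 with DESeq2, 55 after thinning and 1221 with no gene excluded. Between macro-metastatic and pre-metastatic, 91 became 57 to 130, 42 with DESeq2, 47 after thinning, 146 with Cd3e not used to exclude (Cd3e itself not counted) and 1389 with no gene excluded. Relative to B cells, leaving out 1 library gave 3 to 22, 11 to 57 and 2 to 46 calls in the 3 comparisons, no filter gave 4 and 28 in the first and second, and limma-voom 1 in the first. Relative to neutrophils it gave 0 to 24 (136 at an unadjusted p under 0.05 where edgeR called 0), 3 to 120 and 5 to 50, with 5 without the filter and 0 with limma-voom in the first (75 at an unadjusted p under 0.05). With no gene excluded the direction turned for Cd34 (0.107), Angpt1 (0.413) and Il1rl1 (0.655) against control and for Fam117a (0.19) and Hipk1 (0.0470) against pre-metastatic, and Rsad2 between pre-metastatic and control turned to 2.86 without control 2 (lowest without 1 library -5.71); the cause was not tested. Replicate numbers did not pair the samples (correlations 0.050, 0.015 and 0.090), and a replicate block gave 8, 163 and 127 calls and number differences of 1.28, 0.305 and -0.977.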
